A study of Mus musculus with 74 samples.

Results

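The response of mouse embryonic stem (ES) cells to the loss of LIF was examined while their own Nanog gene was held in an induced state. The comparison rests on 5 of the 35 RNA-seq libraries of the count table, out of 74 samples in the series: 2 libraries of Nanog SunTag cells grown with LIF and Dox (+LIF +Dox, C1-1 and C2-1) and 3 of the same cells grown without LIF and with Dox (−LIF +Dox, C1-1, C1-1b and C2-2). They were chosen by their labels alone, that is by the Nanog guide RNA, by Dox and by the presence or absence of LIF. The 6 Nanog SunTag libraries without Dox (+LIF −Dox, C1-1, C2-1 and C2-2; −LIF −Dox, C1-1, C1-2 and C2-1) gave the response to LIF loss without the activator, and 15 libraries of Nanog/Otx2 SunTag cells gave it in cells that carry an Otx2 guide RNA as well.

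All of these cells derive from E14Tg2a, a mouse ES cell line, and were kept on gelatine in serum. Each carries a Dox-dependent CRISPR activator (SunTag: a catalytically dead Cas9 with a tail of GCN4 epitopes that recruit an antibody fragment fused to the VP64 activation domain) on a PiggyBac transposon, a constitutive rtTA driven by the CAG promoter and a guide RNA against the Nanog promoter. The libraries without Dox carry the same components. C1 and C2 are clonal parental lines, each represented by a single derived clone with the guide RNA, so that the libraries of a group come from these clones only. LIF was given at 10 ng/mL and Dox at 1 µg/mL, and RNA was taken on day 3 of the treatment. The estimated counts of the 5 libraries with Dox summed to 16855061 and 30457669 with LIF and to between 33009328 and 70450383 without, and those of all 11 Nanog libraries to between 10937367 and 70450383. As nothing in the labels says that libraries of a clone came from separate cultures, p-values measure only the spread between these libraries, which may be technical.

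LIF (leukaemia inhibitory factor) is a cytokine of the interleukin-6 family that binds the receptor chains LIFR and gp130 (Il6st), activates the JAK kinases and leads to phosphorylation of STAT3, which enters the nucleus and activates targets such as Socs3 and Klf4. In serum, LIF keeps mouse ES cells in the naive pluripotent state, and on its withdrawal they lose naive factors, pass through a formative state resembling the early post-implantation epiblast and differentiate. Nanog is a homeodomain transcription factor of the naive network, best known because a sufficient level of it allows ES cells to self-renew without LIF.

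The target of the guide RNA is shown here because it is the place to which the activator is brought on the endogenous gene. It lies on chromosome 6 of mm9, at chr6:122657269-122657288 on the plus strand, 238 to 219 bases upstream of the annotated start of Nanog. Capitals mark the PAM, the bases next to the target that Cas9 needs.
Nanog guide target: cttcccactagagatcgccaGGG

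Nanog (ENSMUSG00000012396, chromosome 6 of mm9, 122657507 to 122664651) had 93813 and 75226 normalised counts in the 2 +LIF +Dox libraries and 54732, 55641 and 45041 in the 3 −LIF +Dox libraries. The libraries without LIF were all lower than those with LIF, and the groups did not overlap. Their means were 84519 ± 13143 (SD, n = 2) and 51805 ± 5875 (SD, n = 3). The log2 fold change of −0.68 ± 0.39 (SE) was not called by edgeR's quasi-likelihood test (Benjamini-Hochberg adjusted p = 0.2). Blocking by clone gave −0.79, which was called (adjusted p = 0.0497). The fall was also called in the model of the 5 libraries with Dox alone and in the model without −LIF −Dox C2-1. Without Dox, Nanog stood at 29487, 23345 and 21940.5 normalised counts with LIF and at 7032, 8484 and 2234 without. Thus each −LIF +Dox library held more Nanog mRNA than any +LIF −Dox library, and the fall without Dox was called (−2.10 ± 0.37, adjusted p = 0.00105). The difference between the falls with and without Dox, 1.42 on the log2 scale, was not called in the unblocked model (adjusted p = 0.237) and was called when blocked by clone (1.64, adjusted p = 0.0449).

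With Nanog induced, LIF withdrawal still changed a large share of the transcriptome. Of 15624 genes tested, 5089 (32.6%) were called at an adjusted p under 0.05, of which 2665 (17.1% of the genes tested) rose and 2424 (15.5%) fell; 7026 had an unadjusted p under 0.05. The risen genes had a median log2 fold change of 1.203 and the fallen genes one of −1.26, the median over all genes being −0.04, and 3230 of the called genes changed at least 2-fold (1662 up, 1568 down). The +LIF and −LIF libraries did not overlap for 9910 genes (63.4%), among them 5070 of the 5089 called genes. The number called rested in part on a single library: without +LIF +Dox C1-1, which leaves 1 library in that group whose spread is taken from the other groups, it was 2499.

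Most of these genes also responded when Nanog was not induced. Without Dox 6481 genes (41.5%) were called on LIF withdrawal, 3151 (20.2%) upwards and 3330 (21.3%) downwards. The comparisons with and without Dox use different libraries of the same clones, in a single model with a shared estimate of the spread. In both, the library codes and the length trend described below run along with LIF, and cannot be told apart from it in the shared calls. These comparisons shared 3577 genes called in the same direction (1857 up, 1720 down). They were 70.3% of the genes called with Dox and 55.2% of those called without. This number was 2098 without +LIF +Dox C1-1. A further 37 genes were called in opposite directions, 1475 were called with Dox only and 2867 without Dox only; being called in one comparison and not in the other is no test of a difference. The difference of the LIF responses, tested as the interaction of LIF and Dox, was called for 302 genes (1.93%), 161 of which were also called with Dox. Of these 161, 94 responded less with Dox and 67 responded more or in the opposite direction. This split leaves out genes with no called response under Dox, among them 141 interaction genes that were called without Dox only. The number of called interactions was sensitive to the model and to single libraries. With the clone as a block 709 interactions were called. Leaving out 1 library lowered the count to 81 (−LIF +Dox C1-1), 86 (−LIF −Dox C1-1), 111 (−LIF +Dox C1-1b and, separately, +LIF +Dox C1-1), 136 (−LIF −Dox C1-2), 158 and 174 (+LIF −Dox C2-1 and C2-2) or 183 (+LIF +Dox C2-1), and raised it to 481 without +LIF −Dox C1-1, a library that stood apart from the others of its group.

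**Figure D1:**
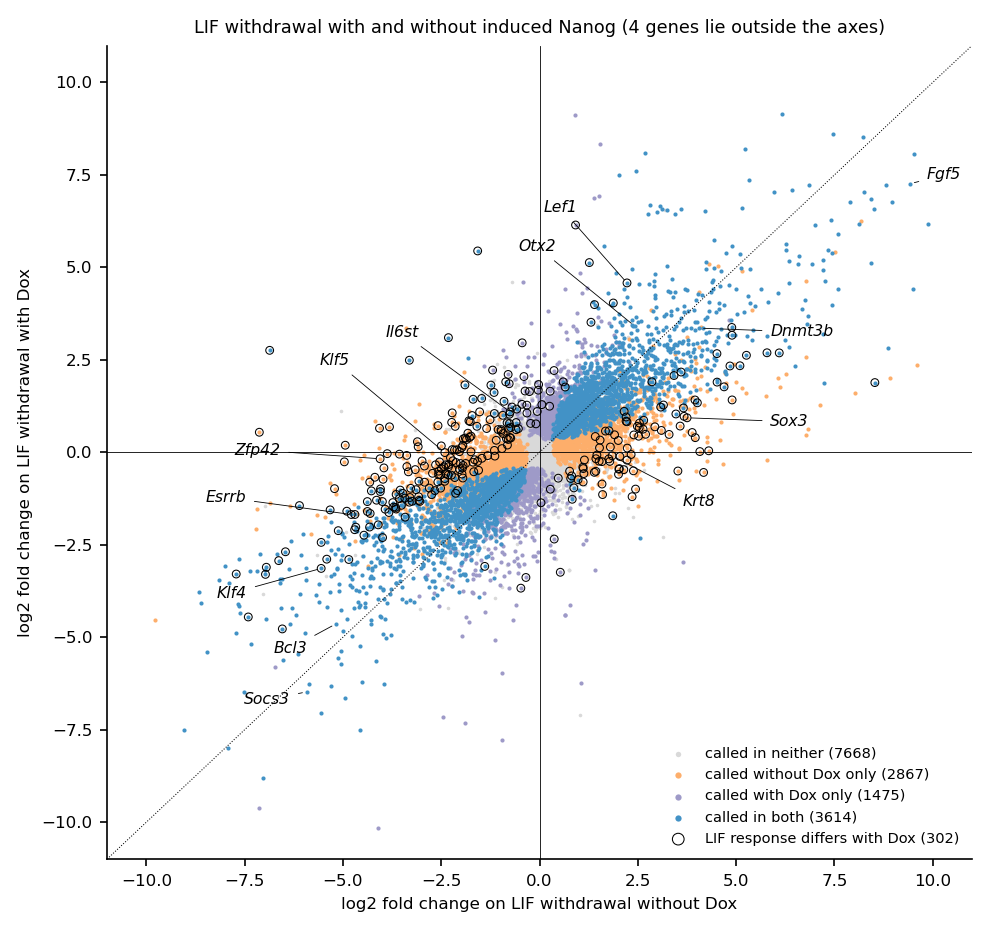
Log2 fold change on LIF withdrawal (−LIF over +LIF) of each tested gene in Nanog SunTag cells without Dox (horizontal axis) and with Dox (vertical axis), coloured by the comparison in which it was called and with genes of a called interaction outlined. Socs3 and Bcl3 lie low on both axes, whereas Zfp42 and Klf5 lie near 0 on the vertical axis and well below 0 on the horizontal one; 4 genes fall outside the axes.

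In Nanog/Otx2 SunTag cells with Dox, LIF withdrawal changed 5699 of 15609 genes (36.5%). Of the 4904 genes called in Nanog cells with Dox and tested there, 2781 were called in the same direction (56.7%; 48.8% of the calls of that model) and 29 in the opposite direction. These are other libraries, but the cells were made from the Nanog SunTag clones.

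A trend with transcript length ran along with LIF in the Nanog cells and touches every count of short or long genes given here. With Dox, the 25% of genes with the shortest exonic length (3895 genes, median 1.30 kb) had a median log2 fold change of −0.52, with 250 genes up and 1076 down, and the 25% with the longest (median 7.26 kb) had one of 0.47, with 1374 up and 215 down. The rank correlation across genes between length and fold change was 0.393 with Dox and 0.325 without. In the Nanog/Otx2 cells the medians of the shortest and longest genes were −0.09 and 0.09. The deviation of each library from the mean of all 35 libraries was also correlated with length. Within the Nanog cells every library with LIF showed a negative correlation (between −0.369 and −0.101) and every library without LIF a positive one (between 0.133 and 0.234). In Nanog/Otx2 cells this correlation lay between −0.334 and −0.126 with LIF and between −0.07 and 0.011 without. In the remaining libraries, from cells without the activator and all grown with LIF, it lay between 0.033 and 0.172. The library codes in the labels also split the Nanog cells by LIF, beginning alike for all libraries with LIF and in another way for all libraries without. What the codes stand for is not given, and what they stand for and LIF withdrawal cannot be told apart. An adjustment for exonic length, added after the data were seen, left 3902 genes called (2004 up, 1898 down), of which 3152 were called in the same direction as before. The share of counts from ribosomal protein genes was 5.78% to 7.57% with LIF and 4.07% to 4.46% without, and that of mitochondrially encoded genes 12.2% to 12.9% and 9.88% to 10.4%. The part of these differences in the results was not tested.

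**Figure D2:**
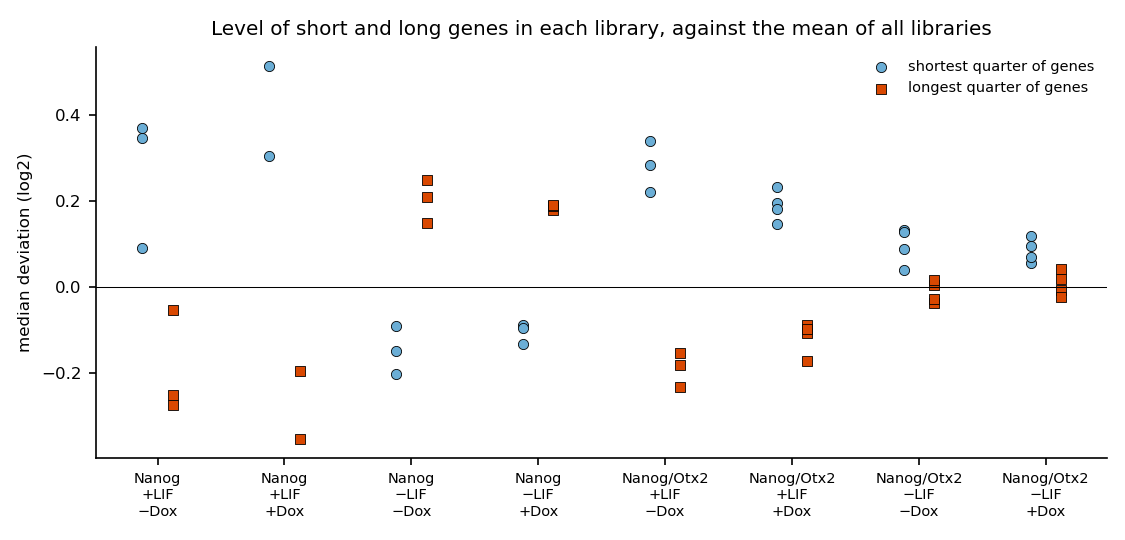
Median deviation (log2) from the mean of all 35 libraries of the count table for the 25% of genes with the shortest and the 25% with the longest exonic length, per library (each point), in the 8 groups of SunTag cells. In Nanog cells long genes lie above short genes in the libraries without LIF and below them in the libraries with LIF.

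Some genes of the LIF pathway, Socs3, Bcl3 and Stat3 among them, fell on LIF withdrawal with Nanog induced, and others were not called or rose. Of 24 tested members of a list of LIF receptor, JAK-STAT3 and target genes, 12 fell and 3 rose with Dox (15.5% and 17.1% of all genes), with a median log2 fold change of −0.88 against −0.04 over all genes. Without Dox 15 fell and 2 rose. The list holds genes known as LIF targets, and its count fell to 9 lower genes at the least when a library was left out.

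Socs3 (ENSMUSG00000053113, chromosome 11 of mm9, 117827393 to 117831361) encodes the feedback inhibitor of gp130 signalling. Its promoter is shown because it was the called list gene with the deepest fall and because it carries a match to the motif TTCNNNGAA, the palindromic element bound by STAT factors. The stretch is that of RefSeq on GRCm38.p6, chr11:117969482-117969550, minus strand, with the motif in capitals 154 to 146 bases upstream of the gene's start.
Socs3 promoter: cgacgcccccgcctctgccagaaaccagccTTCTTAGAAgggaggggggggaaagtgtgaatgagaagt
The motif, which reads the same on both strands, was searched in the 250 bases upstream of the starts; 1 of the 23 list genes with a promoter in the RefSeq table held it, and 8.13% of 27025 genes did.

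Socs3 had 2844 and 3668 normalised counts with LIF and 35.1, 48.01 and 24.4 without. All 3 libraries without LIF were far below both libraries with LIF. The log2 fold change was −6.48 ± 0.36 (SE, adjusted p = 5.11e-06), beside −5.93 ± 0.34 without Dox. Bcl3, an IκB family protein induced by STAT3, had 681 and 606 normalised counts with LIF and 34.7, 19.7 and 18.98 without. Again the groups were far apart, with a log2 fold change of −4.64 ± 0.46 (adjusted p = 9.29e-05) beside −5.19 ± 0.47 without Dox. Stat3, the transcription factor that carries the LIF signal and that activates its own gene, had 2266 and 2545 normalised counts with LIF and 533, 549 and 565 without (−2.11 ± 0.14, adjusted p = 1.05e-05). The 3 libraries without LIF were close to one another and all below those with LIF, and the fall without Dox was −2.43 ± 0.13. The interaction was not called for Socs3, Bcl3 or Stat3 (log2 differences of −0.55 ± 0.43, 0.54 ± 0.62 and 0.32 ± 0.19).

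Other targets fell too. Pim3, a serine/threonine kinase, fell by 1.72 on the log2 scale, and Pramel7, a gene of the naive state, fell by 2.69 from between 52.2 and 106 normalised counts with LIF to between 10.4 and 13.7 without. Gbx2, a homeobox target of STAT3 that can sustain ES cells, fell by 1.98. Spry2, an inhibitor of receptor tyrosine kinase signalling, fell by 1.08. Each of these calls held when any 1 library was left out and after the length adjustment. Pim1 and Junb were also called lower, with log2 fold changes of −0.66 and −1.44. Both lost the call without −LIF +Dox C1-1 (adjusted p = 0.0605 and 0.051), without +LIF +Dox C2-1, and in part without others. Both calls were also lost after the length adjustment, and that of Pim1 with no filter on low counts.

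At the receptor, the response with Dox was unlike that without. Il6st, which encodes gp130, the signalling chain shared by the interleukin-6 family, had 882 and 1166 normalised counts with LIF and 2235, 2351 and 1869.5 without. All 3 libraries without LIF were above both with LIF, and Il6st rose by 1.09 ± 0.20 on the log2 scale (adjusted p = 0.00253). Without Dox Il6st fell by 0.75 ± 0.18, and the difference of 1.84 ± 0.27 between the responses was called (adjusted p = 0.00827). Lifr, which encodes the LIF-binding chain, had 2768 and 2639 normalised counts with LIF and 2355, 2188 and 2109 without, with no overlap but a log2 fold change of only −0.26, which was not called (adjusted p = 0.418). Without Dox Lifr fell by 2.54 ± 0.23, and the difference of 2.28 ± 0.33 was called (adjusted p = 0.00827). In Nanog/Otx2 cells with Dox, Il6st had a log2 fold change of −0.20, which was not called, and Lifr fell by 0.71. Of the regulators of JAK-STAT signalling, Pias1 rose by 0.83, and the kinase genes Jak1, Jak2 and Tyk2 were not called (0.14, −0.36 and −0.18).

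**Figure D3:**
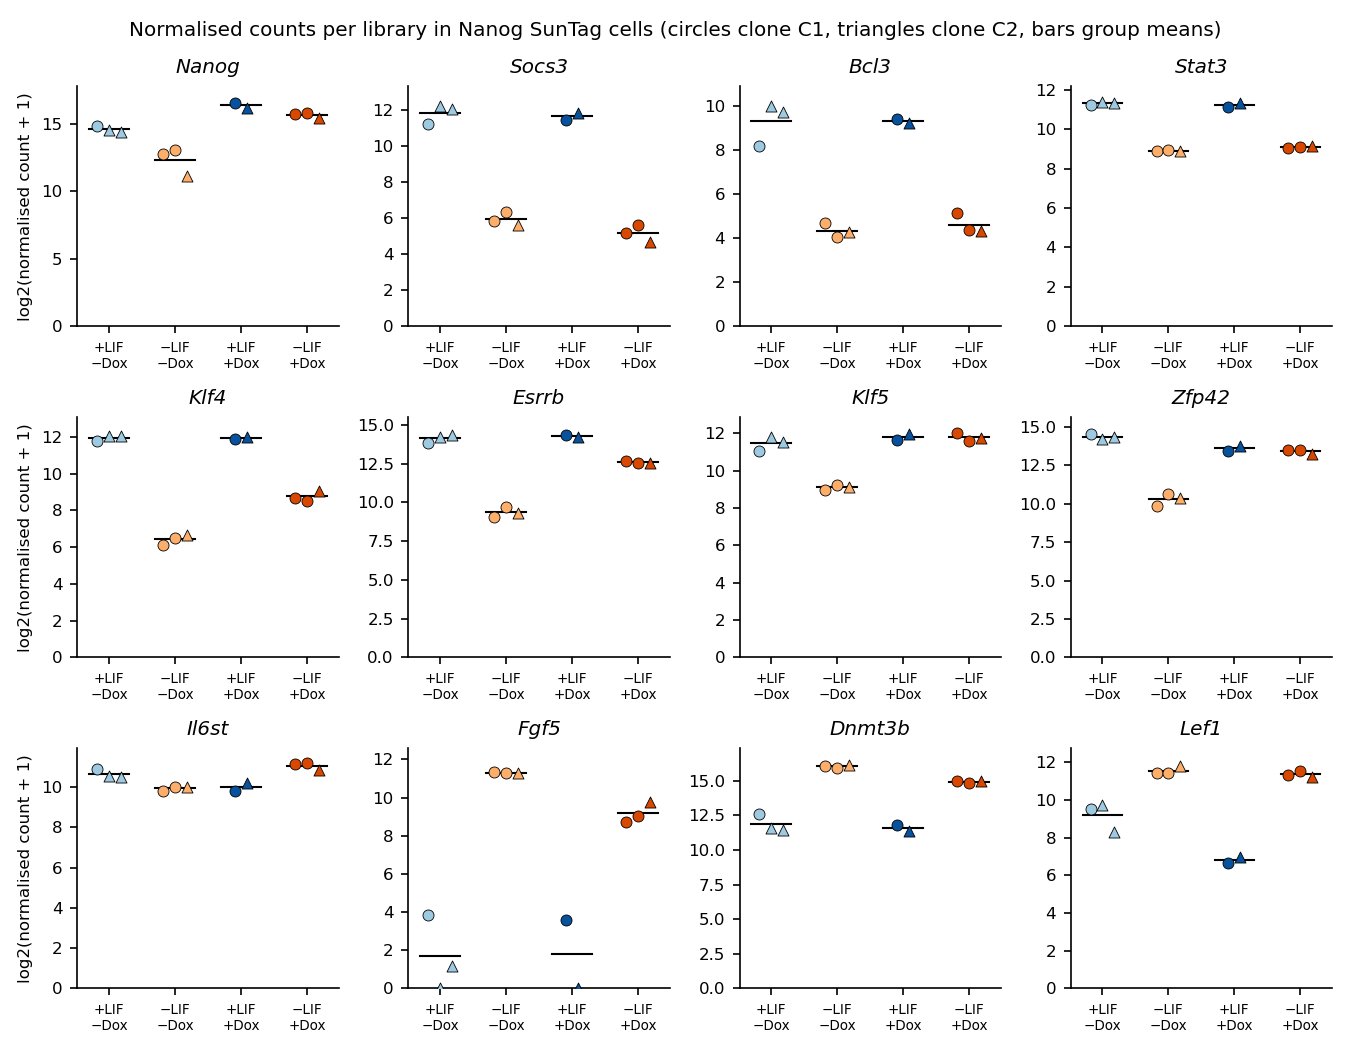
Log2(normalised count + 1) of 12 genes in each of the 11 Nanog SunTag libraries, grouped by LIF and Dox, with circles for clone C1, triangles for clone C2 and bars for the group means. Socs3, Bcl3 and Stat3 are low in both groups without LIF, while Zfp42 and Klf5 are low only in the −LIF −Dox libraries.

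The naive factors divided. Of 20 tested members of a list of naive pluripotency factors, 10 fell and none rose with Dox (15.5% and 17.1% of all genes); without Dox 19 fell. Their median log2 fold change was −0.74 with Dox and −3.33 without, and the interaction was called for 12 of the 20, against 1.93% of all genes, each time with the higher log2 fold change under Dox. Leaving out 1 library left between 7 and 10 lower genes, the lowest number without +LIF +Dox C1-1.

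Klf4, a Krüppel-like factor and direct STAT3 target, and Tbx3 had the deepest falls of the list with Dox. Klf4 had 3816 and 4030.3 normalised counts with LIF and 410.3, 369 and 533 without, the libraries of the groups lying far apart. It fell by 3.14 ± 0.21 with Dox and had a log2 fold change of −5.55 ± 0.22 without, and the difference was called (2.42 ± 0.29, adjusted p = 0.00514). Tfcp2l1, a Grainyhead-like factor downstream of LIF, had 12617 and 13534 normalised counts with LIF and 1727, 1456 and 1983 without. The groups were again far apart, and Tfcp2l1 fell by 2.90 ± 0.23 with Dox, its log2 fold change without Dox being −4.85 ± 0.24; the called difference between these falls was lost without +LIF +Dox C1-1 (adjusted p = 0.0593). Tbx3, a T-box factor that links the PI3K and MAPK pathways to the network, fell by 3.36 ± 0.37 with Dox (from between 7593 and 8717 normalised counts with LIF to between 592 and 974 without) and had a log2 fold change of −5.31 ± 0.39 without; its difference was not called (adjusted p = 0.0758), but was when blocked by clone (adjusted p = 0.0246).

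Esrrb, an orphan nuclear receptor and target of Nanog, had 21280.4 and 19114 normalised counts with LIF and 6677, 5889 and 5980.0 without. The 3 libraries without LIF lay close together and below both with LIF. The log2 fold change was −1.68 ± 0.20 (adjusted p = 0.000227) with Dox and −4.79 ± 0.21 without, a called difference of 3.11 ± 0.28 (adjusted p = 0.00124). Klf2, a further Krüppel-like factor, fell by 2.02 ± 0.30 with Dox and had a log2 fold change of −4.67 ± 0.32 without, with a called difference of 2.65 ± 0.42. Tcl1, an AKT coactivator, fell by 2.12 with Dox (from between 848 and 2117 normalised counts with LIF to between 225 and 469 without). Prdm14, a repressor of epiblast genes, was called lower (−1.33, adjusted p = 0.0147), but not without +LIF +Dox C1-1 (adjusted p = 0.0871). The calls of Klf4, Tfcp2l1, Tbx3, Esrrb, Klf2 and Tcl1 with Dox held when any 1 library was left out and after the length adjustment.

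Other naive factors showed no called response to LIF withdrawal once Nanog was induced. Zfp42 (Rex1), a zinc finger protein used as a marker of the naive state, had 11274 and 13862 normalised counts with LIF and 11752, 11377 and 9733 without. The groups overlapped, and the log2 fold change was −0.17 ± 0.21 (adjusted p = 0.55). Without Dox, Zfp42 had 23743, 19448 and 20455 normalised counts with LIF and 935, 1594 and 1359.6 without, a log2 fold change of −4.06 ± 0.22, and the difference was called (3.88 ± 0.30, adjusted p = 0.00051). Klf5 had 3239.6 and 4036 normalised counts with LIF and 4082, 3104 and 3489.7 without, again overlapping, with a log2 fold change of −0.008 ± 0.21. Its log2 fold change without Dox was −2.41 ± 0.20 and the difference of 2.40 ± 0.29 was called (adjusted p = 0.00543). Nr0b1 (Dax1), an orphan receptor that binds Oct4 and Esrrb, had 1100.4 and 429 normalised counts with LIF and 859, 791 and 511 without, beside 2043, 1167 and 1349.6 with LIF and 101, 185 and 108 without LIF in the absence of Dox. Here too the groups with Dox overlapped, with a log2 fold change of −0.05 ± 0.40, and the difference from the fall without Dox was called (3.51 ± 0.57, adjusted p = 0.0127). The interactions of Zfp42, Klf5, Nr0b1, Klf4, Esrrb and Klf2 were called whichever library was left out.

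Tet2, an enzyme that oxidises methylcytosine, had 4961 and 5052 normalised counts with LIF and 6514, 5788 and 4089.7 without, which overlapped, beside a log2 fold change of −3.09 without Dox. Its called difference of 3.24 ± 0.48 was lost without +LIF +Dox C1-1 (adjusted p = 0.0527). Nr5a2, an orphan nuclear receptor, had 582 and 1061 normalised counts with LIF and 553, 540.1 and 976 without and was not called with Dox. Its interaction was called but was lost in 9 of the 11 models that left out 1 library. The Nanog/Otx2 cells, in which Otx2 was activated along with Nanog, gave called falls for Zfp42 (−0.99), Klf5 (−0.98), Tet2 (−1.21) and Nr5a2 (−1.89) with Dox. Whether these values differ from those in Nanog cells was not tested.

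**Figure D4:**
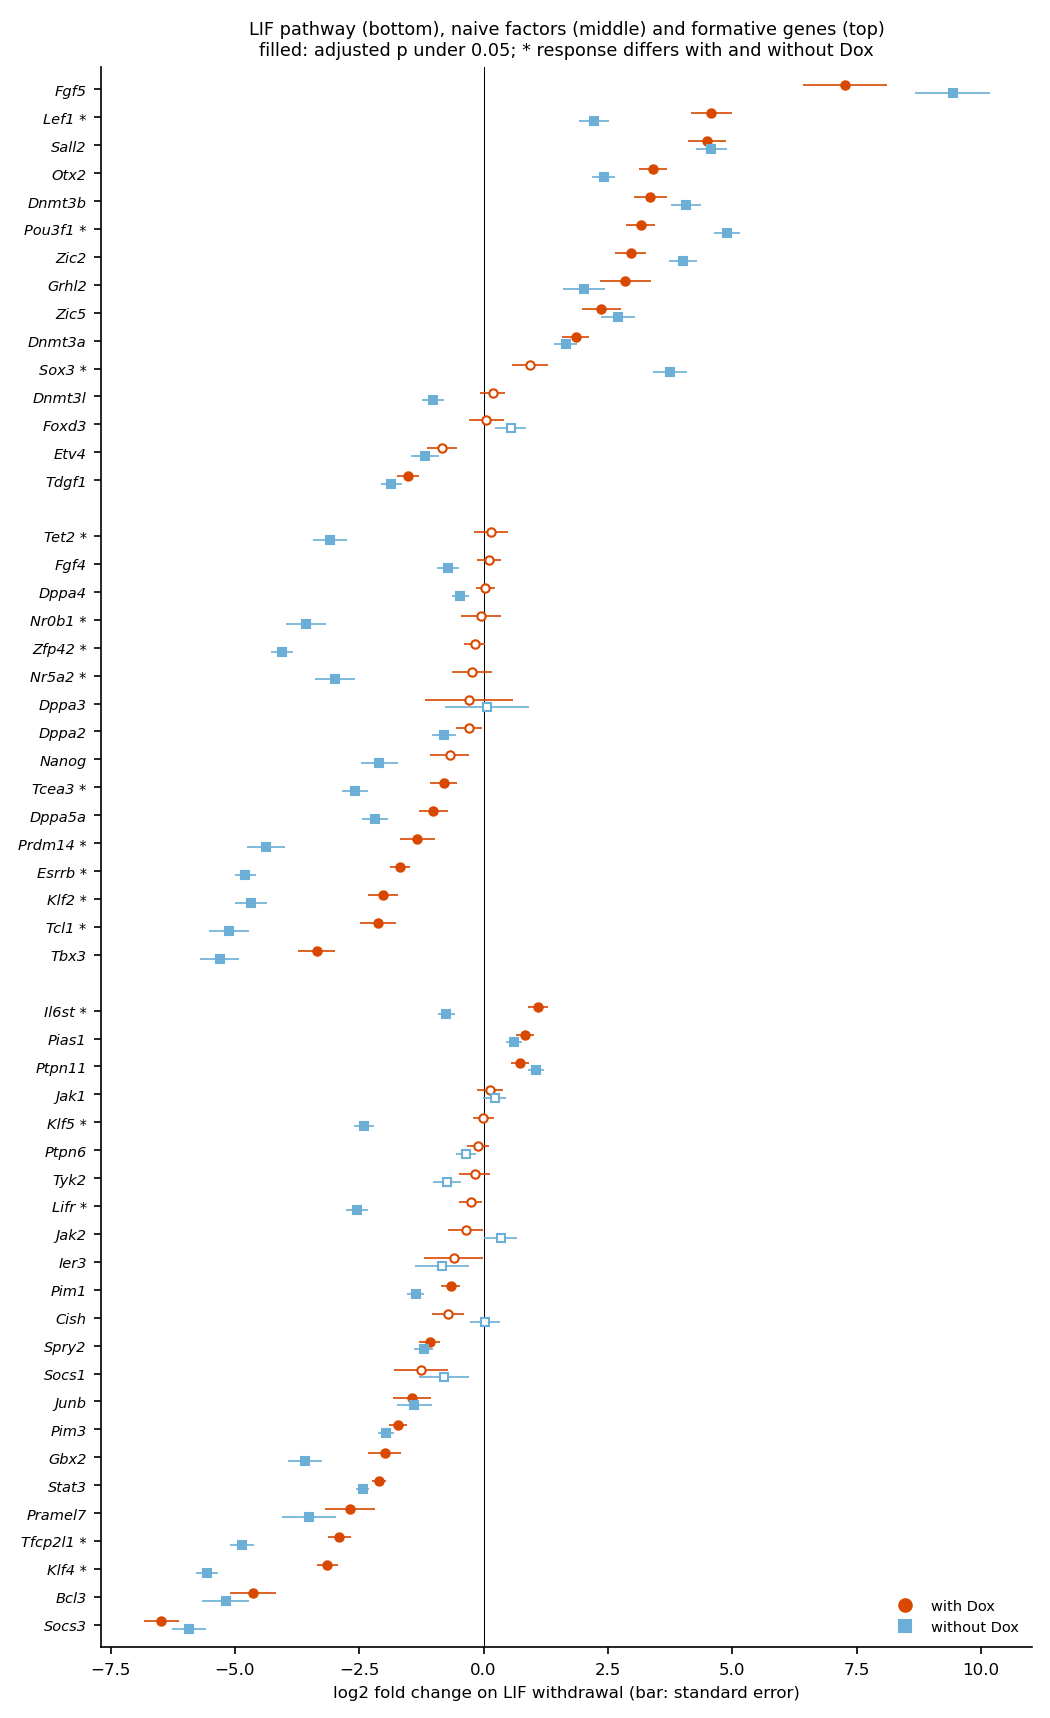
Log2 fold change on LIF withdrawal ± SE for tested genes of the LIF pathway list, the naive list and the formative list, with Dox and without Dox; filled symbols have an adjusted p under 0.05 and asterisks mark a called interaction. Most naive genes lie nearer to 0 with Dox, whereas Socs3, Bcl3 and Stat3 lie at similar places in both.

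Of the core factors, Sox2 and Sall4 were not called, while Rif1 and Sall1 rose. Of 10 tested core pluripotency genes, 5 rose and 1 fell with Dox (17.1% and 15.5% of all genes). Without Dox 2 rose and 3 fell, near the shares of all genes (20.2% and 21.3%). Sox2 had 9771 and 9796 normalised counts with LIF and 8712, 8433 and 9074 without (−0.14 ± 0.21, adjusted p = 0.647), a small difference without overlap. Sall4, a zinc finger partner of Oct4, had a log2 fold change of −0.43, which was not called. Pou5f1, which encodes Oct4, had 40077 and 30743 normalised counts with LIF and 20598, 18531 and 20578 without, with all 3 libraries without LIF lower. Its call (−0.80 ± 0.22, adjusted p = 0.0184) was lost without +LIF +Dox C1-1 (adjusted p = 0.167), without −LIF +Dox C1-1b (adjusted p = 0.0672) and after the length adjustment (adjusted p = 0.0706). Rif1, a chromatin protein with a long transcript, rose by 2.04, from between 6123 and 6418 normalised counts with LIF to between 23575 and 26514 without; the rise after the length adjustment was 1.36, and in Nanog/Otx2 cells 0.27. Sall1 rose by 1.25. Another risen member was matched by a symbol that is also in use for a different gene, which is counted in the WNT list. Its call was lost in several models that left out a library, and it is uncertain as a core factor. Without +LIF +Dox C1-1 or without −LIF +Dox C1-1b, 3 genes of the list rose and none fell, and without +LIF +Dox C2-1, 3 rose and 2 fell.

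Most genes of the formative list rose in the presence of induced Nanog. Of 15 tested members, 10 rose and 1 fell with Dox (17.1% and 15.5% of all genes), with a median log2 fold change of 2.85; without Dox 11 rose and 3 fell, with a median of 2.42. The interaction was called for 3 of the 15, and none of these held in every model that left out a library.

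Fgf5, the fibroblast growth factor that marks the post-implantation epiblast, had 11.2 and 0 normalised counts with LIF and 422, 529.8 and 866 without. It was near absent in both libraries with LIF and present in all 3 without, with a log2 fold change of 7.26 ± 0.84 (adjusted p = 0.000206). Without Dox Fgf5 reached 2558, 2528 and 2508 normalised counts after LIF withdrawal, above all of the −LIF +Dox libraries. Otx2, the homeodomain factor that drives exit from the naive state, had 308 and 166 normalised counts with LIF and 2248, 2484 and 2619.5 without (3.42 ± 0.28, adjusted p = 4.48e-05). The groups were far apart, and without Dox the values were 908, 704 and 740.3 with LIF and 4254, 3534 and 4927 without, so that each −LIF +Dox library had less Otx2 mRNA than each −LIF −Dox library. Its fold changes with and without Dox did not differ in a called way (1.00 ± 0.33, adjusted p = 0.168).

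Dnmt3b, a de novo DNA methyltransferase of the epiblast, had 3527 and 2647 normalised counts with LIF and 32300.2, 28834 and 31976 without, with no overlap (3.36 ± 0.34, adjusted p = 9.91e-05). Dnmt3a, its paralogue, rose by 1.86 ± 0.27. Lef1, a transcriptional effector of WNT signalling, had 98.8 and 125 normalised counts with LIF and 2592, 3012 and 2372 without. All libraries without LIF were far above those with LIF, a rise of 4.58 ± 0.41 beside 2.22 ± 0.31 without Dox; the called difference was lost in 7 of the 11 models that left out 1 library. Zic2 and Zic5, neighbouring zinc finger genes of the epiblast, rose by 2.96 and 2.37. Sall2 rose by 4.50 and Grhl2, an epithelial Grainyhead factor that opens epiblast enhancers, by 2.85. Pou3f1 (Oct6), which is listed under more than 1 identifier so that its counts are uncertain, rose by 3.17. Sox3, a SoxB1 factor of the epiblast and neural plate, had 31.7 and 16.1 normalised counts with LIF and 33.8, 52.3 and 44.3 without. It was not called with Dox (adjusted p = 0.0679), beside a called rise of 3.75 without. The rise of Sox3 with Dox was called by DESeq2, after the length adjustment and without +LIF −Dox C1-1. Tdgf1 (Cripto), the Nodal coreceptor, was the gene of this list that fell, by 1.51 ± 0.22. Foxd3, Dnmt3l and Etv4 were not called (0.06, 0.18 and −0.84); Etv4 was called when blocked by clone (adjusted p = 0.00634).

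In the summed levels of markers for the cell types that such cultures can hold, the 5 ES cell markers summed to 62730 to 71450 normalised counts with LIF and to 46110 to 47900 without, 1 of them called lower. The 5 formative epiblast markers summed to 2929 to 4032 and 33020 to 36890, 4 of them called higher. Mesendoderm markers (482.6 to 688.2 and 420.2 to 673.8), neural markers (1486 to 1812 and 1153 to 1667) and trophoblast markers (56.5 to 125 and 75.9 to 116.6) overlapped between the groups. Fibroblast markers summed to 725.5 to 732.9 and 238.1 to 343.4; Lum, a defining one, and the neural Neurog2 were at 0 in all 5 libraries. Sox1, Tcstv1 and Tcstv3 were not analysed here. In RNA from whole cultures, fewer cells of a type and less RNA per cell cannot be told apart.

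Several primitive endoderm genes, which a minority of cells express in serum cultures, fell. Of 15 tested, 8 fell and 1 rose with Dox, with a median log2 fold change of −1.63 against −0.04 over all genes, and without Dox 8 fell and 1 rose as well. For these and the lists that follow, the counts with Dox stand beside the 17.1% of all tested genes that rose and the 15.5% that fell. Without +LIF +Dox C2-1 only 3 fell and none rose. Lama1, a laminin of the parietal and visceral endoderm basement membrane, had 2609 and 2946 normalised counts with LIF and 832, 615 and 569 without (−2.02 ± 0.24). Sparc, a secreted matrix protein, had 7164 and 7150.1 with LIF and 2046, 2215 and 2578 without (−1.62 ± 0.17). For both genes the libraries without LIF were all lower, and both calls held without any 1 library, as did that of Hnf4a, a nuclear receptor of visceral endoderm (−1.88 ± 0.33). Gata6, a GATA factor that specifies this lineage, had 46.6 and 159 normalised counts with LIF and 29.2, 23.1 and 15.4 without, and Gata4 had 76.5 and 152 with LIF and 37.2, 36.01 and 21.7 without. Their calls were lost without +LIF +Dox C2-1 (adjusted p = 0.306 and 0.108), and that of Gata6 also without −LIF +Dox C2-2 (adjusted p = 0.0501).

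Genes of the germ layers changed in both directions. Of 18 mesendoderm and primitive streak genes, 10 passed the filter on low counts, and 2 rose and 2 fell with Dox (40% called, against 32.6% of all genes), against 5 and 2 without Dox; leaving out 1 library gave between 1 and 3 risen and between 1 and 2 fallen genes. Eomes, a T-box factor of the streak, had 677 and 447 normalised counts with LIF and 469.6, 617 and 396 without, which overlapped. Hhex, a homeobox gene of the anterior endoderm, fell by 1.72 ± 0.32, from between 222 and 269 normalised counts with LIF to between 63.9 and 89.2 without. Among neural genes 5 of 10 tested rose and 1 fell (60% called), the rises numbering 2 without +LIF +Dox C1-1 and 3 without any one of the −LIF +Dox libraries, and 2 falling without +LIF −Dox C1-1. Sox11, a SoxC factor of immature neurons, had 9.33 and 10.8 normalised counts with LIF and 183, 166 and 273 without (4.35 ± 0.44), and Sox4, of the same family, had 423 and 508 with LIF and 2259, 2027 and 2470.4 without (2.30 ± 0.20). Neither gene's groups overlapped, and both calls held without any 1 library. Ncam1, a neural cell adhesion molecule, fell by 2.13 ± 0.17, and Pax6 was not called (166 and 68.2 with LIF and 257, 634 and 193 without).

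Of 11 tested genes of trophoblast and simple epithelium, 3 fell and none rose with Dox, and 1 fell without −LIF +Dox C1-1 or without +LIF +Dox C1-1. Tead4, a TEAD factor of early trophectoderm that ES cells express as well, fell by 2.13 ± 0.24, from between 561 and 964 normalised counts with LIF to between 154 and 193 without. Krt8, a keratin of simple epithelia, had 479 and 424 normalised counts with LIF and 463, 413 and 369 without, which overlapped; without Dox it rose by 1.85 ± 0.20, and the difference of −1.94 ± 0.28 was called whichever library was left out. Krt18, its partner, was not called with Dox (0.79; adjusted p = 0.0262 with the clone as a block) and rose by 2.54 without; that difference was called but was lost in 9 of the 11 models with a library left out. None of the 7 tested markers of 2-cell-like cells was called with Dox by edgeR (1 had an unadjusted p under 0.05, 0 were called by DESeq2 and 2 with the clone as a block). Zscan4c, one of them, had 630.4 and 608 normalised counts with LIF and 197, 759.5 and 83.1 without.

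In FGF and ERK signalling, which drives the exit from the naive state, 6 of 20 tested genes rose and 3 fell with Dox (17.1% and 15.5% of all genes; median log2 fold change 0.18), 4 and 3 without +LIF +Dox C2-1. The share that fell was near that of all genes. Beside Fgf5, the feedback inhibitor Spry1 rose (1.45 ± 0.21) while Spry2 fell. The immediate early gene Fos fell by 2.07 ± 0.45, from between 54.1 and 81.6 normalised counts with LIF to between 11.7 and 22.3 without. Etv5, an ETS factor downstream of ERK, rose by 0.77 ± 0.14. Fgf4, the main FGF of ES cells, stood at 7022 and 4640.3 normalised counts with LIF and 6510.3, 6807 and 5205 without. Fgf4 was not called with Dox (adjusted p = 0.754), and neither were the ERK-responsive Dusp6 (0.58) and Dusp4 (0.91), which were called when blocked by clone (adjusted p = 0.0316 and 0.0295) and rose by 1.53 and 2.38 without Dox; their interactions were not called (adjusted p = 0.116 and 0.125).

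In the WNT pathway 7 of 23 tested genes rose and 2 fell with Dox (39.1% called, against 32.6% of all genes; median log2 fold change 0.69), 5 and 2 without any one of +LIF +Dox C1-1, −LIF +Dox C1-1 and C1-1b. Receptor genes changed in both directions. Fzd7 had 796 and 653 normalised counts with LIF and 1699, 1876 and 4114 without (1.85 ± 0.42), and Fzd2 rose by 3.72 ± 0.37. Fzd5 had 2964 and 4168 with LIF and 591, 639 and 1000.3 without (−2.24 ± 0.28), and Fzd10 fell by 2.26 ± 0.32. Fzd2 and Fzd7 were thus higher in all 3 libraries without LIF, and Fzd5 and Fzd10 lower in all 3. Znrf3, a ubiquitin ligase that removes Frizzled receptors, rose by 1.00. Notum, a secreted enzyme that inactivates WNT proteins, had 112 and 115 normalised counts with LIF and 181, 244 and 115 without, beside 273, 404 and 278 with LIF and 19.5, 27.1 and 22.1 without LIF in the absence of Dox. It was not called with Dox and fell by 3.82 ± 0.33 without, and the difference of 4.51 ± 0.47 was called whichever library was left out.

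For Nodal and BMP signalling, 6 of 20 tested genes rose and 4 fell with Dox; without +LIF +Dox C1-1, 3 rose and 3 fell. Among the receptors, Acvr2b rose by 2.44 ± 0.37, from between 27.98 and 34.1 normalised counts with LIF to between 149 and 191 without, and Bmpr2, the type II BMP receptor, by 2.37 ± 0.28, from between 114 and 137 normalised counts with LIF to between 497 and 842 without. Id2, a BMP-responsive inhibitor of basic helix-loop-helix factors, rose by 2.00 ± 0.33. Smad7, the inhibitory SMAD, fell by 0.90 ± 0.21. Inhbb, the activin βB subunit, had 2275 and 3332 normalised counts with LIF and 238, 240.0 and 483 without. All of its libraries without LIF were lower, and it fell by 3.11 ± 0.56 with Dox and had a log2 fold change of −6.95 ± 0.67 without. Nodal itself was not called (1050.0 and 686 with LIF and 559.9, 637 and 606 without, −0.50 ± 0.23).

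Several epithelial genes rose with Nanog induced. Of 15 tested epithelial and mesenchymal genes, 7 rose and 2 fell with Dox, 5 and 1 without +LIF +Dox C1-1. Without Dox 8 genes of this list rose and 3 fell. The median log2 fold change of the list was 0.81 with Dox and 0.93 without, and 0.25 with Dox after the length adjustment. Esrp1, an epithelial splicing regulator, had 433 and 63.7 normalised counts with LIF and 5273, 5850.1 and 3876 without (4.41 ± 0.96, adjusted p = 0.00578). Cldn6, a tight junction claudin, had 923 and 327 with LIF and 3908, 3585 and 2646 without (2.48 ± 0.43). In both genes every library without LIF was above every library with LIF. Cldn7 rose by 2.16, and Cdh1, which encodes E-cadherin, by 0.81 ± 0.17. Zeb1, a repressor of E-cadherin that is listed under more than 1 identifier and therefore uncertain, fell by 1.96 ± 0.28. Cdh2 (N-cadherin) was called higher and Vim (vimentin) lower, at 2.04 and −1.36, and both calls were lost without +LIF +Dox C1-1 (adjusted p = 0.052 and 0.0808). Fn1, Snai1 and Snai2 were not called.

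Among 12 tested genes of DNA methylation, 6 rose and 1 fell with Dox, and 3 rose and 1 fell after the length adjustment; without +LIF +Dox C1-1, 2 rose and 1 fell. Zfp57, a KRAB zinc finger protein that protects imprinted regions, had 18856 and 18358 normalised counts with LIF and 10016, 10075 and 7852 without. Its libraries without LIF were all lower, with a log2 fold change of −0.97 ± 0.19 beside −3.28 ± 0.19 without Dox, and the difference of 2.30 ± 0.26 was called whichever library was left out. Uhrf1, the partner of the maintenance methyltransferase, was not called (−0.03 ± 0.16).

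Of 14 tested genes of the Polycomb complex PRC2 and its demethylases, which write and remove H3K27me3, 3 rose and 1 fell with Dox; without +LIF +Dox C2-1, 1 rose and 1 fell, and without +LIF −Dox C1-1, 5 and 3, and 2 fell with the clone as a block. The catalytic subunit gene Ezh2 had 5539 and 4958 normalised counts with LIF and 4933, 4466 and 4519.8 without (−0.15 ± 0.18, adjusted p = 0.535). Eed, which reads the mark, was not called (−0.53 ± 0.20), but was when blocked by clone (adjusted p = 0.0348). Kdm6a, an H3K27 demethylase, rose by 1.64 ± 0.29, and E130012A19Rik (Epop), a PRC2 cofactor of ES cells, fell by 1.78 ± 0.23, from between 4265 and 7568 normalised counts with LIF to between 1340.0 and 1979 without. Without Dox, 1 gene rose and 6 fell.

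The D cyclins, which drive entry into S phase, changed in different directions. Of 20 tested genes of the Myc family and of G1 control, 6 rose and 3 fell with Dox, 4 and 3 without +LIF +Dox C2-1, and with only 1 lower gene without +LIF +Dox C1-1, without −LIF +Dox C1-1 or C1-1b and after the length adjustment. Ccnd1 had 1505 and 1340.2 normalised counts with LIF and 4569, 5102 and 4584 without (1.76 ± 0.15). Ccnd2 had 198 and 110.3 with LIF and 1419, 1795 and 1902 without (3.52 ± 0.39). Ccnd3 had 7218 and 6652 with LIF and 2199.8, 2165 and 2247 without (−1.63 ± 0.30). Ccnd1 and Ccnd2 were thus higher, and Ccnd3 lower, in every library without LIF. Cdkn1c (p57), an imprinted inhibitor of cyclin-dependent kinases, rose by 1.41 ± 0.29, and Myc was not called (0.14 ± 0.40).

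Of 20 tested glycolytic genes 1 rose and 1 fell with Dox, 32.6% of all genes being called in either direction; leaving out 1 library gave between 0 and 6 risen and between 1 and 2 fallen genes, the 6 without +LIF −Dox C1-1. With the clone as a block 4 rose and 3 fell. Hk1, a hexokinase, fell by 1.38 ± 0.30. Of 13 genes of threonine, serine and glycine metabolism 1 rose and 2 fell, between 0 and 1 and between 1 and 4 when 1 library was left out. Tdh, the threonine dehydrogenase on which mouse ES cells depend, is listed under more than 1 identifier and fell by 1.04 ± 0.25. Of 21 genes of cholesterol synthesis 6 rose and 2 fell, 4 and 1 after the length adjustment and 3 and 0 without +LIF +Dox C1-1. Sc5d, a late enzyme of the pathway, rose by 0.94.

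Many genes of the respiratory chain and the ribosome, which have short transcripts, fell along with the length trend. Of 77 tested genes of the nuclear-encoded respiratory chain 50 fell and none rose with Dox (median −0.89), 51 fell without Dox and 35 fell in Nanog/Otx2 cells. After the length adjustment 20 fell and 1 rose, with a median of −0.40, and without +LIF +Dox C1-1 only 16 fell. Cox5a, a subunit of cytochrome oxidase, had 11880.5 and 5800.1 normalised counts with LIF and 2806, 2528 and 2451 without (−1.74 ± 0.30), a call that held in each of these settings. Of 80 ribosomal protein genes 44 fell and none rose with Dox (median −0.71), and 29 fell without Dox. After the adjustment 14 fell and 3 rose, with a median of −0.26; 6 fell without +LIF +Dox C1-1, 25 without −LIF +Dox C1-1b and 26 without −LIF +Dox C2-2, and in Nanog/Otx2 cells 2 fell and 1 rose. Rpl12 fell by 1.12 ± 0.20, with the call held in each setting. Such genes have processed pseudogenes, and reads may have been split between them.

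Of 15 germline genes tested 1 rose and 6 fell with Dox, 2 and 3 after the length adjustment and 1 and 1 without +LIF +Dox C2-1. Tdrd1, a Tudor protein of the piRNA pathway, had 31.7 and 106 normalised counts with LIF and 299.6, 305 and 425.6 without (2.28 ± 0.43). Dazl, a germ cell RNA-binding protein, was called lower (−1.78 ± 0.41), but not without +LIF +Dox C2-1 (adjusted p = 0.187). Of 39 Hox genes 14 passed the filter, and 1 rose and 5 fell, with 3 lower without +LIF +Dox C1-1 or without −LIF +Dox C1-1b. The posterior gene Hoxb13 had 27.98 and 74.5 normalised counts with LIF and 0.418, 2.57 and 4.52 without, and Hoxc13 had 179 and 196 with LIF and 35.1, 37.7 and 18.98 without. Both were low in all 3 libraries without LIF (−4.50 ± 0.92 and −2.58 ± 0.36).

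**Figure D5:**
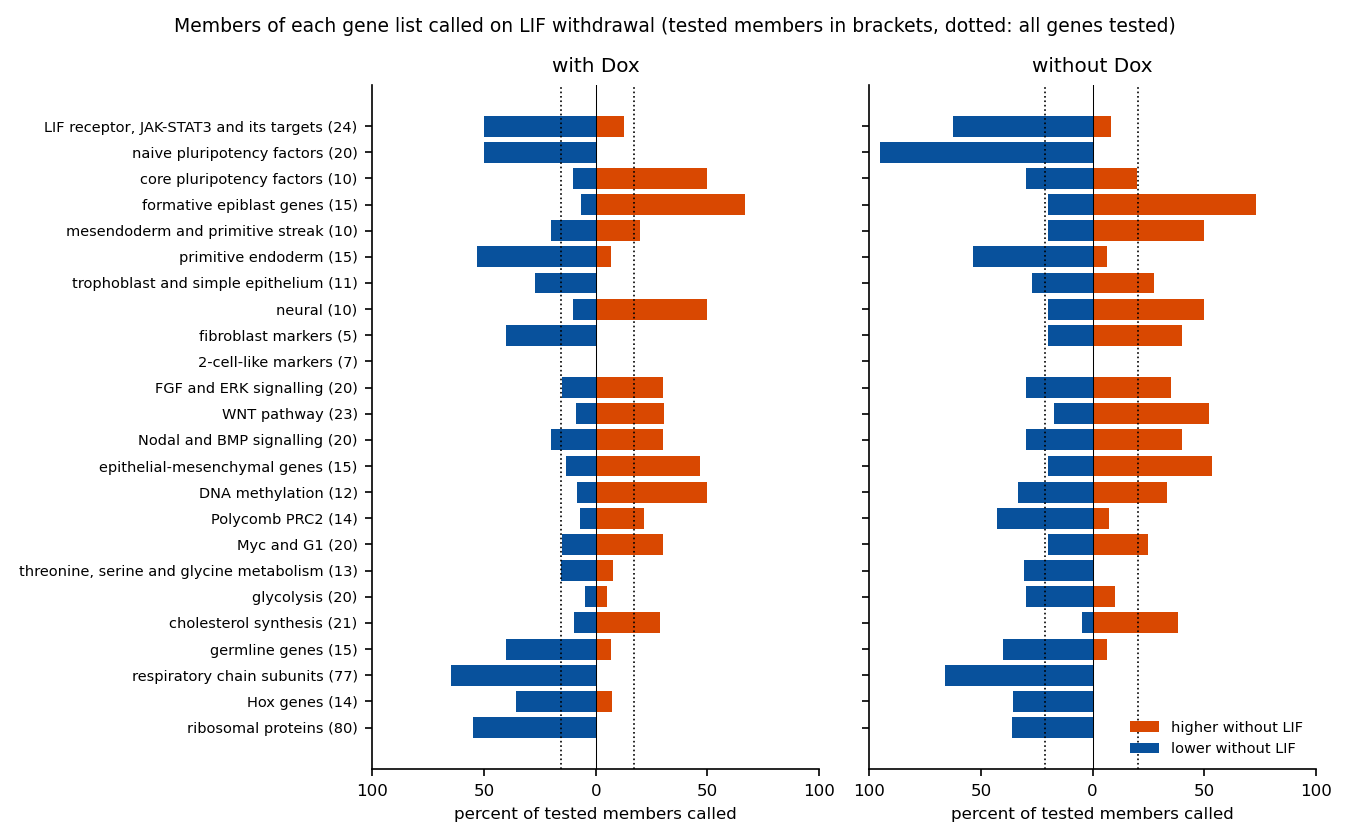
Percent of the tested genes of each list that were called higher (right of 0) and lower (left of 0) on LIF withdrawal, with Dox (left panel) and without Dox (right panel), with dotted lines for all tested genes. The naive list reaches 50% lower with Dox and 95% without, and the formative list lies far above all genes upwards in both.

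Among well expressed genes (group mean of 100 normalised counts or more on the higher side, libraries not overlapping), the largest called rises included the following genes. Col14a1, a fibril-associated collagen, had 24.2 and 6.28 normalised counts with LIF and 1354, 1598 and 501 without (6.44 ± 1.02). Enpp2, autotaxin, which makes lysophosphatidic acid, rose by 6.14 ± 0.65, from between 16.1 and 54.1 normalised counts with LIF to between 1608 and 2529 without. Ror1, a WNT5A receptor tyrosine kinase, rose by 5.64 ± 0.43. Bcl11a, a zinc finger repressor, rose by 5.38 ± 0.57, and Cxcl12, the chemokine that binds CXCR4, by 5.31 ± 0.59. Zfp608 rose by 5.17 ± 0.44. By the rule of choice, each of these genes was lower in both libraries with LIF than in any of the 3 without. Among the deepest falls beside Socs3, Igfbp7, a secreted binding protein of insulin-like growth factors, had 992 and 486 normalised counts with LIF and 12.5, 21.4 and 12.7 without (−5.55 ± 0.51). Serpinb1a, an elastase inhibitor, fell by 5.39 ± 0.44, from between 266 and 457 normalised counts with LIF to between 5.01 and 12 without. The same rule also returned pseudogenes and short RNAs whose reads can be shared with near-identical copies: Rpl30-ps9 was at least 1293-fold higher and Rpl36a-ps3 at least 637-fold lower without LIF, against the limit of 3 counts in each library of the group at 0, and both are uncertain.

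Genes of a called interaction that were also called with Dox were ranked by the size of the difference. Among those that responded less with Dox, Gm7325 had 1439.8 and 1219 normalised counts with LIF and 173, 68.6 and 155 without, beside 1076, 1689.6 and 1365 with LIF and 4.07, 3.88 and 12.3 without LIF in the absence of Dox. With Dox its log2 fold change was −3.29 ± 0.38 and the difference of 4.42 ± 0.61 was called whichever library was left out. Inhbb followed, with a difference of 3.84 ± 0.84 that was lost in 9 of the 11 models leaving out 1 library, and Myo1g, an unconventional myosin, with 3.77 ± 0.59, lost without +LIF +Dox C1-1 (adjusted p = 0.0527); its call with Dox (−1.56 ± 0.38) was lost without +LIF +Dox C2-1 (adjusted p = 0.102). Acsm4, an acyl-CoA synthetase, had 214 and 235 normalised counts with LIF and 80.2, 63.4 and 100.3 without under Dox, and 91.04, 163 and 139.8 and 0.814, 2.59 and 2.46 without Dox; as the −LIF −Dox libraries held 3 counts or fewer, no difference is given. Of the genes that responded more or in the opposite direction with Dox, Ecel1, an endopeptidase of neurons, had 101 and 159.7 normalised counts with LIF and 12.1, 5.14 and 23.5 without, beside 10.7, 16.8 and 14.98 with LIF and 29.3, 21.97 and 11.1 without LIF in the absence of Dox. Its groups did not overlap with Dox and overlapped without, and its difference was −3.77 ± 0.79. B3gnt3, a glycosyltransferase, had 295 and 183 normalised counts with LIF and 25.9, 12.9 and 14.5 without (−3.67 ± 0.45), and its log2 fold change without Dox was −0.48 ± 0.43. The interaction of Ecel1 was lost in 8 and that of B3gnt3 in 6 of the 11 models with 1 library left out.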

How the data were processed

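The deposited estimated counts were made by the authors by aligning stranded reads of polyadenylated RNA to mm9 with STAR, estimating reads per gene with RSEM and rounding them. The deposited signal, called normalised counts here, was made by the authors by scaling each of the 35 libraries with its DESeq2 size factor.

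Genes were tested if all libraries of some condition reached 10 normalised counts. Differences between groups were tested on the estimated counts by edgeR's quasi-likelihood method (version 4.0.16, R 4.3.3) after TMM normalisation, in a model of the 4 Nanog groups (11 libraries) without a term for the clone, as in the study's methods, and in a separate model of the 15 Nanog/Otx2 libraries. Adjusted p-values are Benjamini-Hochberg values over all tested genes, and "rose", "fell" and "called" refer to an adjusted p under 0.05. Values after ± are SD for levels and SE for log2 fold changes. This SE is approximate. It was derived from the test, as the absolute log2 fold change divided by the square root of the F statistic. Levels are given per library in the order C1-1 and C2-1 (+LIF +Dox), C1-1, C1-1b and C2-2 (−LIF +Dox), C1-1, C2-1 and C2-2 (+LIF −Dox), and C1-1, C1-2 and C2-1 (−LIF −Dox). No fold is given where every library of a group had at most 3 counts, unless all had 0, when a bound is given; such bounds cover counting error only.

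The genes named are Nanog, members of the gene lists, the 12 largest rises and falls with Dox among called genes whose higher group averaged 100 normalised counts or more, without overlap, and, at the same level and among genes called with Dox, the 5 largest called interactions with a smaller response under Dox and the 5 with a larger or opposite one; not all are given. The comparison, lists and markers were chosen with earlier results of these data known. Exonic lengths, known for 15580 tested genes, come from the GENCODE vM1 annotation.

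The alternatives were DESeq2 (1.42.0), its size factors in edgeR, edgeR's filter or none, the 5 libraries with Dox alone, thinned counts, each library left out in turn, and the clone, given by the labels, as a block. Deviations from the group means correlated at 0.206 to 0.402 between libraries of the same clone with and without LIF under Dox. The length adjustment, chosen after the data were seen, removed from each library the trend of log2 CPM on exonic length. −LIF +Dox C1-1 and C1-1b carry the same number in the labels but differed by more than counting noise (chi-square per degree of freedom 26.8). The exact permutation test of 3 against 2 libraries cannot give a p below 0.1 and was not used. On simulated counts of the Nanog libraries, 200 of 15624 genes were changed 2-fold with Dox. edgeR recovered 7.5% of them and made 17 calls, of which 11.8% were false. DESeq2 recovered 34.5%, and 26.6% of its calls were false. Both false shares were above the threshold set, that of edgeR on few calls. Far more genes were called in the data than were changed here, so these shares need not hold there. The numbers of called genes are approximate. Tables were handled in Python 3.11.15 (pandas 2.3.3, numpy 2.4.6, and for correlations scipy 1.17.1). Some list members are not reported here by name. ChIP-seq and ATAC-seq were not analysed here.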

Additional observations from a re-analysis of the deposited data

Results flagged for a closer look

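The LIF response differed with and without Dox for 302 genes, by edgeR's test of the interaction. The values here are log2 fold changes with Dox minus without Dox, so that a positive value is a smaller fall, or a larger rise, with Nanog induced.

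Among the pluripotency genes named above the differences were 1.95 for Tfcp2l1, 2.40 for Klf5, 2.42 for Klf4, 2.65 for Klf2, 2.75 for Nr5a2, 3.00 for Tcl1, 3.05 for Prdm14, 3.11 for Esrrb, 3.24 for Tet2, 3.51 for Nr0b1 and 3.88 for Zfp42. The calls for Klf4, Klf5, Klf2, Esrrb, Nr0b1 and Zfp42 held whichever library was left out. That of Tcl1 was lost without −LIF −Dox C1-1 and without −LIF +Dox C1-1 (adjusted p = 0.0609 and 0.0506). That of Prdm14 was lost without −LIF +Dox C1-1 and without either +LIF +Dox library (adjusted p = 0.0506, 0.0672 and 0.0608). Those of Tfcp2l1 and Tet2 were lost without +LIF +Dox C1-1 (adjusted p = 0.0593 and 0.0527).

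At the LIF receptor the difference was 1.84 for Il6st and 2.28 for Lifr, and it was 2.30 for Zfp57, 4.51 for Notum, 4.42 for Gm7325 and −1.94 for Krt8. All of these held whichever library was left out. For Myo1g it was 3.77, lost without +LIF +Dox C1-1 (adjusted p = 0.0527).

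The remaining differences were called in the model of all 11 libraries but were lost in between 3 and 10 of the 11 models that left out 1 library. They were 2.36 for Lef1, 1.11 for Ccnd1, 2.21 for Ccnd2, 0.99 for Sall1, 0.86 for Etv5 and 3.84 for Inhbb. They were 1.63 for Tdh, 2.14 for Zeb1 and −1.73 for Pou3f1, each listed under more than 1 identifier. They were −2.82 for Sox3, −1.75 for Krt18, −3.77 for Ecel1 and −3.20 for B3gnt3.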

How the results depend on the processing

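The number of genes called on LIF withdrawal with Dox (5089) lay between 3902 (adjusted for exon length) and 6272 (clone as a block) over the alternatives that kept all libraries, with 5958 by DESeq2, and between 2499 (without +LIF +Dox C1-1) and 6998 (without +LIF −Dox C1-1) when 1 library was left out. The genes also called without Dox in the same direction numbered between 2098 and 5246 in those models, again at the lowest without +LIF +Dox C1-1. The interactions (302) numbered 709 with the clone as a block, 877 by DESeq2, and between 81 (without −LIF +Dox C1-1) and 481 (without +LIF −Dox C1-1) when 1 library was left out; the cause was not tested. The clone as a block changed no other call given above than those named beside their results. Of the 126 tested genes named in the report, none changed direction past the threshold on the response with Dox. The length adjustment ended 3 of their calls and added 7, and DESeq2 ended none and added 6. With a single +LIF +Dox library the spread was taken from the other groups. With 2 libraries in 1 group and 16855061 counts in the shallower, a gene not called is not shown to be unchanged.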
